A study of Rattus norvegicus with 36 samples.

Results

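Between day 8 and day 14 after a spinal cord injury, without any training, cytokine, chemokine, neutrophil and immediate early transcripts were higher on average in the soleus muscle, but in 4 of 6 rats more than in the other 2. Over the same interval, transcripts of heat shock proteins, ribosomal proteins, proteasome subunits and slow-fiber contractile proteins were lower on average, by list medians that were nearer to 0 after quantile normalization and without 2 of the 6 SCI14d rats, and that turned in sign for the proteasome after scaling to GAPDH. Genes of lipid uptake and fatty acid oxidation were higher on average, by list medians of 0.58 and 0.34 that were 0.39 and 0.15 without SCI14d replicate 2. Of 20 fatty acid oxidation genes, 1 was at an unadjusted p under 0.05. In trained rats the day 14 against day 8 medians of the neutrophil, heat shock, ribosomal, lipid uptake and fatty acid oxidation lists had the same signs. That of the immediate early genes had the other sign, at -0.13 with training and 1.02 without. The untrained minus trained difference passed for 0 probe sets. No probe set passed the adjusted test, so the values below are differences of means with their spread, and none of them is called a change.

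The untrained rats of day 14 (SCI14d) were compared with the untrained rats of day 8 (SCI8d), which makes 12 of the 36 arrays of the series, 6 from each day. All were adult female Sprague Dawley rats whose spinal cord had been bruised at mid-thoracic level by a dropped weight. The other arrays are from uninjured rats of like age (CTR, n = 6), untrained rats of day 3 (SCI3d, n = 6) and injured rats that walked on a treadmill until day 8 or day 14 (SCI8d + TM and SCI14d + TM, n = 6 each). They serve to place the levels, and the trained difference is set beside the untrained one. Trained rats of day 14 had more sessions than those of day 8, and their muscles were taken hours after the last session. In the trained difference, time and amount of training cannot be told apart. Each array held the RNA of the left soleus of 1 rat, and different rats were used on each day, so that a difference between days is a difference between rats and not a change followed in 1 animal. The injury was incomplete and the rats were housed singly. In whole muscle, fewer cells of a type and less RNA per cell cannot be told apart.

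The soleus is a postural hindlimb muscle built mainly of slow, oxidative fibers that burn fatty acids. It loses mass when its load or nerve activity falls, with more proteasome and ubiquitin ligase transcripts and fewer transcripts of fuel use, and slow fibers carry large amounts of small heat shock proteins that bind sarcomere proteins. Chemokines such as Cxcl1 and Ccl2 call neutrophils and monocytes into tissue, and their transcripts, like those of the immediate early genes, can appear and vanish within hours.

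In limma, 0 of 31042 probe sets differed between SCI14d and SCI8d (0% called). The smallest adjusted p was 0.107. The methods' t-test also gave 0 after adjustment and 2004 at an unadjusted p under 0.05. At an unadjusted p under 0.05, limma gave 2717 probe sets, of which 1599 (5.15% of all tested) were higher and 1118 (3.6%) were lower on day 14, where 1552 are expected by chance over both directions. The share of higher ones among them was 58.9% and moved with the scaling, to 48.4% after quantile normalization, to 37% after centring on the median and to 97.5% after scaling to the GAPDH control probe sets, whose own signal was lower on day 14 and which lifted the median over the whole table from 0.05 to 0.33 on the log2 scale. Between the trained groups of the same days 179 probe sets (0.577%) passed, 99 higher and 80 lower. The untrained difference minus the trained one passed for 0 probe sets in limma, with 1659 at an unadjusted p, so a difference between both courses was not shown. By gene, 3.03% were above and 2.67% below 0 in it at an unadjusted p under 0.05. Against uninjured controls, 1952 probe sets passed on day 8 and 989 on day 14.

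The count of 0 depended on single rats. Without SCI14d replicate 1, 9 probe sets passed, among them those of S1pr1 (adjusted p = 0.00267), Icam1 (adjusted p = 0.011), Mdk (adjusted p = 0.0285), Rab27a (adjusted p = 0.0455) and Kars1 (adjusted p = 0.0483) in limma. For S1pr1 replicate 1 was the only SCI14d rat not above all SCI8d rats, and for Icam1 it was the lowest SCI14d rat. Leaving it out therefore enlarges these 2 differences by itself. Without SCI8d replicate 1, 5 passed, with Kars1 (adjusted p = 0.0224) and S1pr1 (adjusted p = 0.0494) again among them. Without SCI8d replicate 3 there were 2, and without SCI14d replicate 4 there was 1. SCI14d replicate 4 stood apart from its group, with the lowest mean correlation with the other arrays of a group in the series (0.896) and a GAPDH 3′ to 5′ ratio of 1.35, where the other 11 arrays of both days had 1.06 to 1.17. SCI8d replicate 1 had the lowest correlation of its day (0.91).

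By gene, with 1 probe set standing for each of 14217 genes, 852 genes (5.99%) were higher and 506 (3.56%) lower at an unadjusted p under 0.05, the mean of day 14 was the higher one for 59.5%, and the median log2 fold change was 0.07. The signals of both days did not overlap for 30 genes that were higher (0.211%) and 20 that were lower (0.141%), and over probe sets the shares were 0.168% and 0.155%. The genes named next are the 10 higher and 10 lower ones of smallest unadjusted p among probe sets above the 40th percentile of mean signal. None of them passed, and the adjusted p of limma lay between 0.107 and 0.333.

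S1pr1, the endothelial receptor of sphingosine 1-phosphate, had the smallest p of the higher genes. Its signal was 2506 to 3306 in SCI8d (median 2738) and 2890 to 6426 in SCI14d (median 5004). All SCI14d rats except replicate 1 lay above the highest SCI8d rat. The log2 fold change was 0.77 (SE 0.15, exact permutation p = 0.00649). On day 8 S1pr1 was lower than in controls (-0.89 on the log2 scale, adjusted p = 0.000487), while on day 14 that difference was -0.11 (adjusted p = 0.765). Both values share the control arrays.

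Mdk encodes midkine, a heparin-binding growth factor of regenerating tissue. It ran from 180 to 269 in SCI8d (median 235) and from 275 to 572 in SCI14d (median 429), and the groups did not overlap. Midkine was higher by 0.89 on the log2 scale (SE 0.19, adjusted p = 0.15), with an exact permutation p of 0.00216, the smallest that 6 against 6 rats allow. In trained rats day 14 against day 8 gave 0.86 (adjusted p = 0.023), and the difference between both courses was 0.02 on the log2 scale (adjusted p = 0.996). Control rats had a median of 228 and day 3 rats of 225, and against controls day 14 was higher by 0.95 (adjusted p = 0.00364).

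Phf14, a chromatin reader, was higher by 0.57 and stood at 1144 on day 8, 1796 on day 14 and 1829 in controls (medians). Rab27a, a regulator of secretory vesicles, was higher by 0.74. F3, tissue factor, which starts blood clotting, was higher by 1.17, with a range of 794 to 1642 on day 8 and of 1339 to 5452 on day 14, and 5 of 6 SCI14d rats lay above all SCI8d rats. The other higher genes belong to endothelial adhesion and innate immunity. They are Icam1 (1.69) and Selp (1.69), which bind leukocytes to the vessel wall, Ccrl2 (1.06), a receptor that presents chemerin, Slfn2 (0.78), an interferon-induced gene of lymphoid and myeloid cells, and C3 (2.19), the central complement component. For Selp and C3 the SCI8d median was dim, below a signal of 106, the 40th percentile of mean signal over all probe sets, so the size of their difference rests on dim values.

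Among the lower genes, Kars1, the lysyl-tRNA synthetase, ran from 13450 to 24947 in SCI8d (median 18656) and from 8562 to 13881 in SCI14d (median 12503). The overlap was small, since 4 SCI14d rats lay below all SCI8d rats. The log2 fold change was -0.63 (SE 0.13, exact permutation p = 0.00649). Set against controls, Kars1 differed by 0.52 on day 8, which passed (adjusted p = 0.0106), and by -0.11 on day 14, which did not (adjusted p = 0.706). Slc29a2, an equilibrative nucleoside transporter, followed a like course, with a median of 1366 on day 8, 616 on day 14 and 488 in controls. Its log2 fold change was -1.04 (adjusted p = 0.269) without training and -1.39 with training, where it passed (adjusted p = 0.0109).

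The chaperones Hspb2, a small heat shock protein of muscle, and Dnajb2, a co-chaperone of Hsp70, were lower by log2 fold changes of -1.05 and -0.64. Trim54, a ubiquitin ligase of the sarcomere also known as MuRF3, was lower by -0.42, with 14967 to 19717 in SCI8d and 11173 to 16438 in SCI14d. Snf8, a subunit of the ESCRT-II sorting complex, was the one gene of the 10 whose groups did not overlap, with 2772 to 3839 in SCI8d and 2306 to 2664 in SCI14d (log2 fold change -0.38, SE 0.1). Ifi27l2b, of an interferon-induced family, was lower by -1.43 from a very uneven day 8, where it ran from 3758 to 39600. The remaining ones are Rpl22, a ribosomal protein (-0.41), Pdap1, a PDGF-binding protein (-0.38), and Ssu72, a phosphatase of RNA polymerase II (-0.43). Of these 20 genes, 4 had another probe set of opposite sign. These were Ssu72 (0.36), Phf14 (-0.07 and, on a dim probe set, -0.19), and, on dim probe sets, Kars1 (0.19) and Selp (-0.10).

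**Figure D1:**
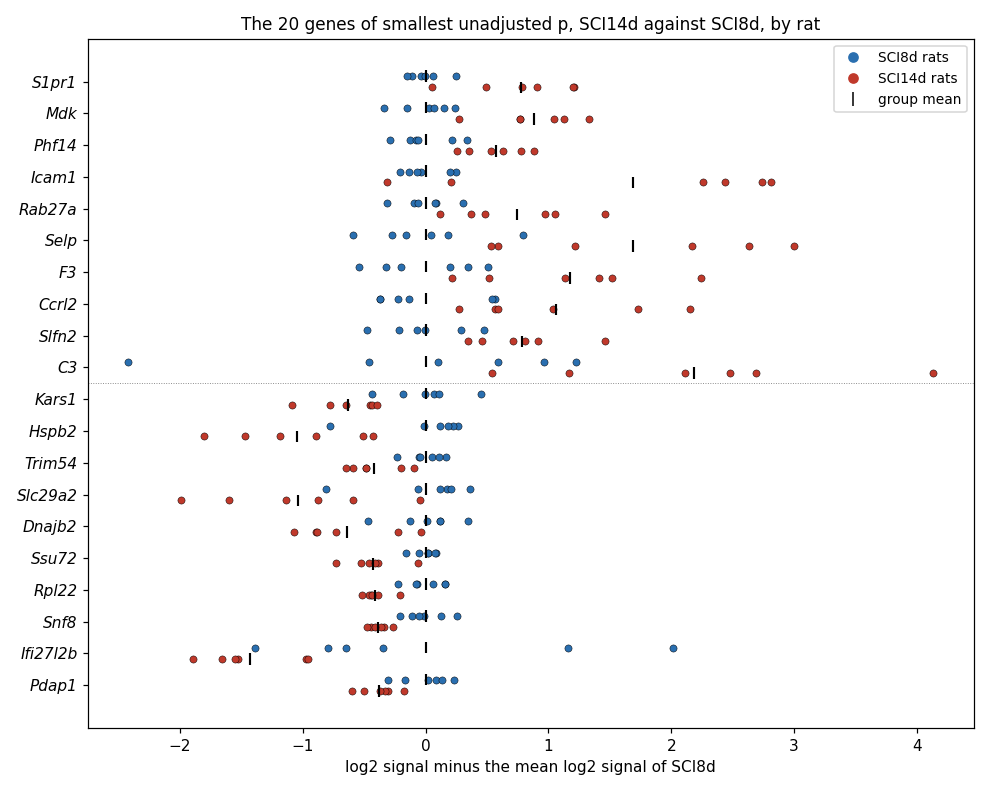
Log2 signal of each rat minus the mean log2 signal of SCI8d (x axis) for the 10 higher and 10 lower genes of smallest unadjusted p, with 6 SCI8d rats (blue) and 6 SCI14d rats (red) per gene and group means as vertical ticks. The groups did not overlap for Mdk and Snf8 and overlapped for the other 18 genes, and Icam1 had 4 SCI14d rats far above all SCI8d rats, 1 among them and 1 below.

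Some genes whose days did not overlap were chosen after their values were seen. Spry2 and Spry4, feedback inhibitors of growth factor signaling to ERK, were both higher on day 14. Spry2 had 510 to 1096 in SCI8d and 1106 to 2085 in SCI14d, and Spry4 had 167 to 345 and 351 to 643. Their log2 fold changes were 0.96 and 0.91 (adjusted p = 0.335 and 0.329) without training and -0.07 and 0.10 with it. Tfrc, the transferrin receptor through which cells take up iron, ran from 5702 to 10166 in SCI8d and from 1678 to 5514 in SCI14d, a log2 fold change of -1.14. Alox15, a lipoxygenase of macrophages and eosinophils, ran from 652 to 4302 in SCI8d and from 179 to 622 in SCI14d, which gave -1.93. It had been higher than in controls on day 8 (log2 fold change 3.42, adjusted p = 0.000774), and in trained rats the day 14 against day 8 difference was -1.82. Irs2, an adaptor of the insulin receptor, is the one gene of the insulin and mTOR list whose days did not overlap. Its signal was 290 to 459 in SCI8d and 476 to 724 in SCI14d, with a control median of 1344.

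The inflammatory transcripts had large differences of means and a wide spread between rats. They are shown with the upstream sequence of their genes, because some of them carry a match to the kappa-B site, the binding sequence of the factor NF-kappa-B that turns on many cytokine genes. Matches to the kappa-B consensus on either strand are in capitals, overlapping matches are merged, and the sequences are those of RefSeq for the GRCr8 build, read along the gene. The first 5 windows have 60 bases and the last one has 90, and none reaches into the transcript.
Cxcl1, chr14:17479372-17479431, minus strand: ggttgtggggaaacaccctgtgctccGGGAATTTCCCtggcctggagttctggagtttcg
Cxcl2, chr14:17467306-17467365, minus strand: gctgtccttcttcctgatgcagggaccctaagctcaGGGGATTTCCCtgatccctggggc
Il6, chr4:5894626-5894685, minus strand: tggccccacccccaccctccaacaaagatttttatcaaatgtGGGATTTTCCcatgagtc
Irf1, chr10:38417825-38417884, plus strand: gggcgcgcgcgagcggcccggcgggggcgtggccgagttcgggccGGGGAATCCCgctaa
Nfkbia, chr6:78597093-78597152, minus strand: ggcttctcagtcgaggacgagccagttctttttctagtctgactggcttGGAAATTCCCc
Cxcl10, chr14:15988866-15988955, plus strand: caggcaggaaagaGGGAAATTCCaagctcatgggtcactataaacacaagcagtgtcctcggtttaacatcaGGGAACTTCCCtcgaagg
The matches begin 84 bases before the start of Cxcl1, 74 before Cxcl2, 68 before Il6, 65 before Irf1 and 31 before Nfkbia, and 187 and 128 before Cxcl10. In the 250 bases before a gene, 6.33% of all 33469 RefSeq windows held this consensus. Of the 29 chemokine genes measured, 23 had a window and 8 of these held it (34.8%). They were Ccl7, Ccl9, Ccl20, Cxcl1, Cxcl2, Cxcl6, Cxcl10 and Cxcl11, some with large and some with small differences. Of 13 immediate early genes with a window 1 held it (7.69%). Of 16 heat shock genes with a window, which had lower means, 2 held it (12.5%), as did the lower gene Psmd11. The part of NF-kappa-B in the values was not tested. The windows of Il1b, Icam1, Zfp36, S100a9, Csf3r, Plau, Sele, Ccrl2, Slfn2 and C3 held none, and Ccl2, Selp and S100a8 had no window. The motif was chosen after the values were seen, and a match describes letters, not binding.

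Of the genes described next, Cxcl1, Cxcl2, Ccl2, Ccl7, Il1b, Zfp36, Plau and Sele were chosen after their values were seen. In SCI8d the medians of Cxcl1, Cxcl2, Cxcl10, Il6, Csf3r, Mmp9 and Sele lay below the signal of 106, so that the sizes of their differences rest on dim values. Cxcl1, a chemokine that draws neutrophils, had a signal of 29.0 to 113 in SCI8d (median 59.9) and of 67.1 to 24485 in SCI14d (median 9108). Replicates 1 and 2 of SCI14d, at 68.9 and 67.1, lay among the SCI8d rats, replicate 4 was at 294.5, and replicates 3, 5 and 6 were at 23576, 17922 and 24485. The log2 fold change was 4.79 with an SE of 1.69 (adjusted p = 0.417, exact permutation p = 0.0238). The uninjured rats were split in the same manner, with 10.6, 61.6 and 80.9 in replicates 1, 5 and 6 and 8362 to 12814 in replicates 2, 3 and 4. Trained rats of day 14 were split too, with 7535 and 7690 in replicates 3 and 5 and 10.6 to 297 in the others. No rat of SCI3d, SCI8d or SCI8d + TM was above 442.5.

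Cxcl2, a close relative of Cxcl1, ran from 4.42 to 63.8 in SCI8d and from 10.99 to 7216 in SCI14d. Ccl2, which draws monocytes, ran from 868 to 3247 in SCI8d (median 1022) and from 741 to 21246 in SCI14d (median 12729). Again replicates 1 and 2 were at the day 8 level and the other 4 above it, and the log2 fold change was 2.27 (SE 0.73). Ccl7, another monocyte chemokine, was higher by 2.23 and Cxcl10, an interferon-induced chemokine, by 2.0. Of the 29 chemokines, 25 had a higher mean on day 14, 9 (31%, against 5.99% of all genes) were higher at an unadjusted p under 0.05, 0 were lower and 0 passed, with a median log2 fold change of 0.49. Members with little difference included Cxcl12, which holds cells in place under resting conditions (-0.01), and Ccl11, the eosinophil chemokine (-0.12).

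Il1b, the cytokine interleukin-1 beta, had 28.6 to 323 in SCI8d (median 124) and 104 to 10858 in SCI14d (median 1793). Replicates 1 and 2 of SCI14d, at 104 and 222, lay within the SCI8d range and the other 4 above it. The log2 fold change was 3.40 (SE 0.97, adjusted p = 0.359, exact permutation p = 0.026). Il6, a cytokine that muscle and immune cells both release, had 25.2 to 139 in SCI8d and 29.98 to 10954 in SCI14d, a log2 fold change of 3.79 (SE 1.29). Il1r1, the receptor of interleukin-1, was higher by 0.86.

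The means of Nfkbia and Zfp36 were higher too, and neither passed. Nfkbia, which holds NF-kappa-B in the cytoplasm, had 1272 to 2211 in SCI8d and 1411 to 11155 in SCI14d (log2 fold change 1.24). Zfp36, which destroys cytokine transcripts, had 583 to 1941 and 809 to 11478 (2.11). For both, replicates 1 and 2 were again the 2 lowest SCI14d rats. Compared with controls, Nfkbia was lower on day 8 (log2 fold change -1.41, adjusted p = 0.0181) and Zfp36 as well (-2.11, adjusted p = 0.0322), while on day 14 the differences were -0.17 and 0.01 (adjusted p = 0.864 and 0.997).

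Neutrophil markers were high in the same SCI14d rats. S100a9, a subunit of the neutrophil protein calprotectin, had 404 to 2626 in SCI8d (median 849) and 1081 to 25398 in SCI14d (median 12264), a log2 fold change of 2.75 (SE 1.01). Its partner S100a8 was higher by 2.81 and Csf3r, the receptor that drives neutrophil growth, by 1.80. All 6 measured neutrophil markers had a higher mean and 5 were at an unadjusted p under 0.05 (83.3%, background 5.99%). The median was 1.86, and 1.49 to 2.59 over the alternatives. In trained rats all 6 had a higher mean as well, with a median of 1.45, and 3 were at an unadjusted p (background 9.76%). Their summed signal was 755 to 4018 in SCI8d (median 1467) and 1877 to 38309 in SCI14d (median 18269), and 2 of the 6 were dim, below the 40th percentile. In uninjured rats S100a9 reached 19406 and 23062 in replicates 3 and 4 and was 154 to 1036 in the others. The part of neutrophils in the chemokine and cytokine values was not tested. Of 20 macrophage markers, 15 had a higher mean and 1 was higher at an unadjusted p (5%, background 5.99%). Their median was 0.24, and it was -0.07 without SCI8d replicate 1 and SCI14d replicate 4. The median of the 11 lymphocyte markers, 8 of them dim, was 0.23, and -0.16 without SCI8d replicate 3.

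Of 20 immediate early genes measured, 18 had a higher mean on day 14, with a median log2 fold change of 1.02. At an unadjusted p, 9 were higher (45%, background 5.99%) and 0 lower (background 3.56%). Egr1, a zinc finger factor switched on within minutes of a stimulus, had 1012 to 7859 in SCI8d (median 1646) and 1142 to 24703 in SCI14d (median 14393), a log2 fold change of 1.97 (SE 0.73). Nr4a1, a nuclear receptor induced by contraction and stress, was higher by 1.72, Nr4a2 by 1.51 and Myc, which drives growth, by 1.45. In 14 of the 20 genes (70%) replicates 1 and 2 were the 2 lowest SCI14d rats, against 6.94% of all genes. In trained rats 7 of the 20 had a higher mean on day 14, the median was -0.13, and 1 was higher and 1 lower at an unadjusted p, where all genes had 9.76% and 6.91%. For Myc the trained value was -0.55 and the difference of both courses 2.0, which did not pass (unadjusted p = 0.00378, adjusted p = 0.886 in limma).

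Over 16 of these genes, chosen after their values were seen, replicates 1 and 2 were the 2 lowest SCI14d rats in 15, with Nr4a1 as the exception. Without replicates 2 and 4 of SCI14d, a choice made after seeing the data, the median of the immediate early genes was 1.48 with 14 at an unadjusted p. That of the neutrophil markers was 2.59. In that setting 1609 of 31042 probe sets were at an unadjusted p, 65.7% of them higher. Replicate 2 had the lowest mean log2 signal of SCI14d for the immediate early list (8.94). For the neutrophil list it was next to the lowest (6.95 beside 6.91). Leaving it out therefore raises both differences by itself.

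Targets of glucocorticoids, the steroid hormones of the stress response, had a higher mean in 16 of 21 genes, with 7 higher (33.3%, background 5.99%) and 1 lower (4.76%, background 3.56%) at an unadjusted p and a median of 0.44. Sgk1, a kinase that they induce, was higher by 1.34 (1056 to 2931 in SCI8d and 1548 to 9702 in SCI14d), Cebpd by 1.30 and the clock gene Per1 by 1.09. Per1 had been lower than in controls on day 8 (-1.85, adjusted p = 0.000336), and its day 14 difference from controls was -0.76 (adjusted p = 0.16). Of the 18 clock genes 1 was higher at an unadjusted p (5.56%, background 5.99%) and the median was 0.02. Gadd45g and Gadd45b, stress genes linked to growth arrest, were higher by 1.10 and 1.19, and 5 of 21 stress genes (23.8%, background 5.99%) were higher at an unadjusted p.

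Some proteases and vessel genes had higher means too. Plau, the urokinase that activates plasmin, had 1991 to 4097 in SCI8d and 2455 to 17889 in SCI14d (log2 fold change 1.23). Mmp9, a gelatinase stored by neutrophils, was dim, at 3.04 to 48.5 in SCI8d and 20.5 to 468 in SCI14d. Sele, the selectin that activated endothelium shows to leukocytes, had dim signals of 1.4 to 77.4 in SCI8d and 24.4 to 257 in SCI14d. Mmp2, a gelatinase of fibroblasts, was higher by 0.86 and 5 of 6 SCI14d rats lay above all SCI8d rats. In trained rats Mmp2 differed by 0.96 (adjusted p = 0.103). Of 29 matrix genes 5 were higher at an unadjusted p (17.2%, background 5.99%), while the median of the 17 collagens was 0.01.

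**Figure D2:**
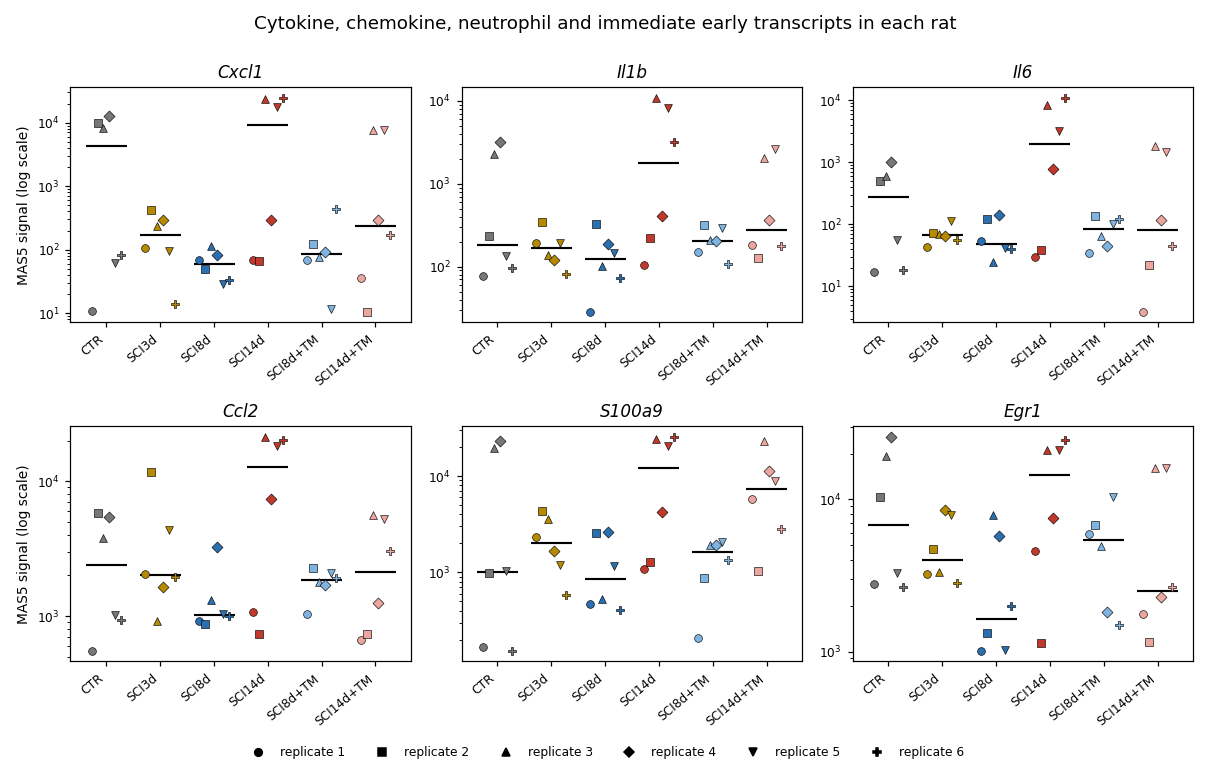
MAS5 signal on a log scale of 6 transcripts in each rat of the 6 groups, with the replicate number as the marker and the group median as a line. SCI14d rats 3, 5 and 6 lay above all SCI8d rats for each gene and rats 1 and 2 were the lowest of their group, and uninjured and trained day 14 rats were split as well, for Cxcl1 with 8362 to 12814 in 3 controls and 10.6 to 80.9 in the other 3.

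The heat shock proteins had a lower mean in 20 of 20 genes, with 11 of them at an unadjusted p (55%, background 3.56%), 0 passed and a median log2 fold change of -0.44, which was -0.44 in trained rats as well. The upstream windows of 3 of them are shown with the sequence GAANNTTC, the core of the heat shock element to which Hsf1 binds, in capitals.
Hspb1, chr12:26432392-26432451, minus strand: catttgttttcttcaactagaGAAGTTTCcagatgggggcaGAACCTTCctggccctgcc
Hsph1, chr12:10427311-10427367, plus strand: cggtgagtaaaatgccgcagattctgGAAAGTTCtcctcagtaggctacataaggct
Hspe1, chr9:64084241-64084300, plus strand: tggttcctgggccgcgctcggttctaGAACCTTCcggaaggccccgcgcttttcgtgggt
Hsph1, a partner of cytosolic chaperones, was lower by -0.63 and Hspe1, a mitochondrial co-chaperonin, by -0.33. Of 16 list genes with a window, 9 (56.2%) held GAANNTTC in the 250 bases before the start, against 7.23% of all windows. As GAANNTTC reads alike on both strands, each match counts once. The part of Hsf1 in the lower means was not tested, and here too a match describes letters, not binding.

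Hspb1, the small heat shock protein that guards actin, had 25984 to 75616 in SCI8d (median 46447) and 9983 to 51965 in SCI14d (median 36515). Replicates 2 and 4 of SCI14d, at 9983 and 10876, were below all SCI8d rats and the other 4 within their range. The log2 fold change was -0.88 (SE 0.29, adjusted p = 0.407, exact permutation p = 0.13). Dnajb4, a co-chaperone, was lower by -0.81 and Hsp90ab1, the constant form of Hsp90, by -0.42. In 12 of the 20 heat shock genes (60%) replicates 2 and 4 were the 2 lowest SCI14d rats, against 9.11% of all genes, and without both the median was -0.18 with 1 gene at an unadjusted p.

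Stretch and regeneration genes were low in the same 2 rats. Csrp3, a Z-disc protein that senses stretch, had 31891 to 80551 in SCI8d and 10547 to 63217 in SCI14d, with 10547 in replicate 2 and 15945 in replicate 4. Ankrd2, another stretch-induced protein, had a median of 19527 in SCI8d and 7652 in SCI14d (log2 fold change -1.03). Mybph, a myosin-binding protein of regenerating fibers, had 1419 and 3231 in replicates 4 and 2 and 28140 to 38405 in the other SCI14d rats, against 10532 to 52427 in SCI8d. Its log2 fold change of -1.18 became 0.14 without these 2 rats. The list of 11 developmental contractile genes had a median of -0.54, and of -0.05 without these 2 rats. At an unadjusted p, 5 were lower (45.5%, background 3.56%) and 1 was higher (9.09%, background 5.99%). The higher one was Myh8, the neonatal myosin, with 130 to 336 in SCI8d and 151 to 4222 in SCI14d, where replicates 2 and 6 had 3120 and 4222. Mustn1, an early gene of muscle growth, was lower by -0.54.

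Slow-fiber contractile genes had a lower mean in 10 of 10, with 7 at an unadjusted p (70%, background 3.56%) and a median of -0.38. They are bright as well, and the share among the brightest 5% of all probe sets was 21.5%. In trained rats the median was -0.13. Myh7, the slow myosin heavy chain, had 48621 to 90831 in SCI8d (median 64702) and 37777 to 66600 in SCI14d (median 54080). Myh7 was lower by -0.35 on the log2 scale (SE 0.16), which did not pass (adjusted p = 0.521). Myl2, its regulatory light chain, was lower by -0.52, Tnni1 and Tnnc1, slow troponins, by -0.39 and -0.37, and Myoz2, a Z-disc protein of slow fibers, by -0.57. Tpm3, the slow tropomyosin, was lower by -0.80 on the brightest of its probe sets, and of its 11 other probe sets 8 were lower as well (-0.14 to -0.53) and 3 were not (0.31, 0.10 and, on a dim one, 0.02). SCI14d replicate 4 was the lowest in 10 of 10 genes, and without SCI14d replicates 2 and 4 none was at an unadjusted p and the median was -0.19. Of 15 fast-fiber contractile genes, 7 had a higher mean and 8 a lower one, with a median of -0.05. At an unadjusted p, 0 were higher and 1 was lower (6.67%, background 3.56%), the light chain Myl1 (-0.29). The fast myosin heavy chains did not pass either, and Myh1 had 0.27 on its brightest probe set. Myh2, the 2A form, had medians of 19352 and 27385 (0.53), and Myh4, the 2B form, 632 and 3272 (1.15, SE 1.12).

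**Figure D3:**
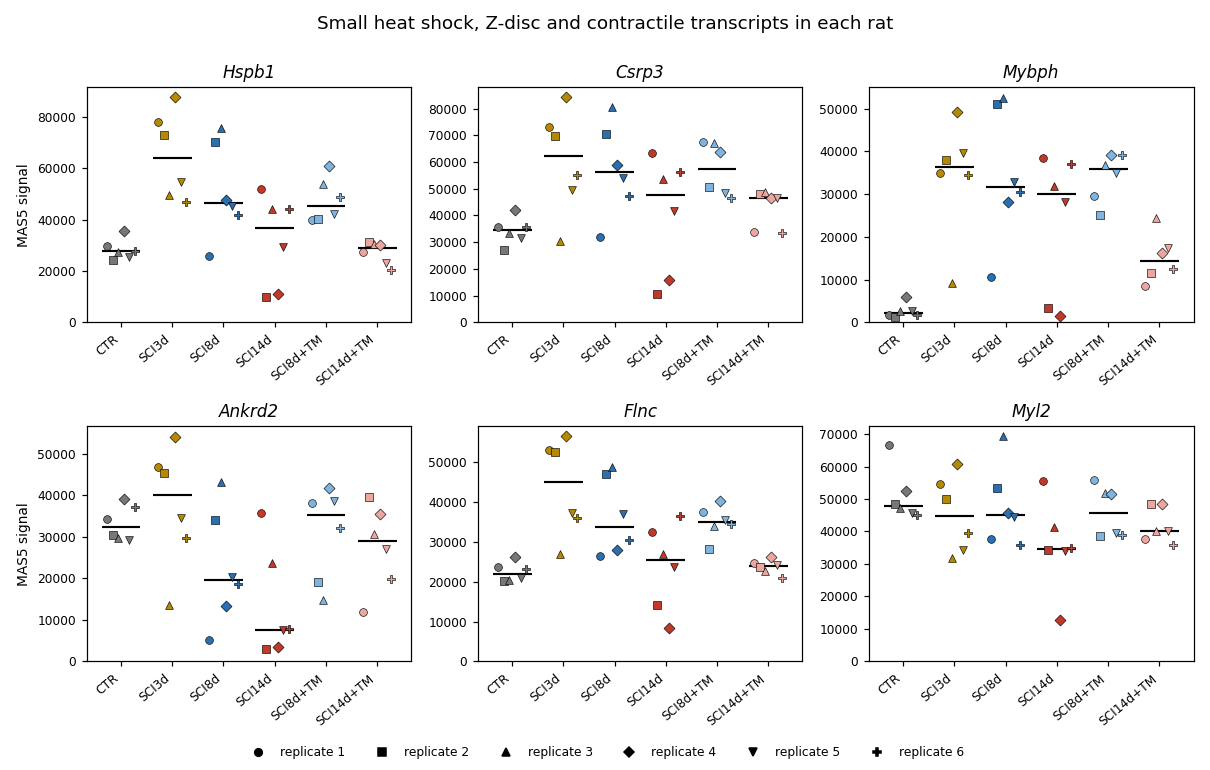
MAS5 signal on a linear scale of 6 abundant transcripts in each rat of the 6 groups, with the replicate number as the marker and the group median as a line. SCI14d rats 2 and 4 were the lowest of their group for Hspb1, Csrp3, Mybph, Ankrd2 and Flnc, rat 4 was the lowest for Myl2 at 12637, and SCI8d rat 1 was the lowest of its group for those 5 genes.

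Of 18 cytosolic ribosomal proteins, 17 had a lower mean and 16 were at an unadjusted p (88.9%) against 3.56% of all genes, with a median of -0.31. These are bright genes, and among the brightest 5% of all probe sets 21.5% were lower at an unadjusted p. In trained rats the median was -0.26 and 11 were lower at an unadjusted p, where all genes had 6.91%. Rpl4 had 23148 to 37490 in SCI8d and 19633 to 26082 in SCI14d (log2 fold change -0.41), and Rpl19, Rps3 and Rpl7 were lower by -0.36, -0.38 and -0.33. Another probe set of Rpl7 had 0.18. The elongation factor Eef2 was lower by -0.34, but of the 28 biogenesis and translation factors 2 were lower at an unadjusted p (7.14%, background 3.56%). After quantile normalization 0 of the 18 ribosomal genes were at an unadjusted p and the median was -0.05, and after scaling to the GAPDH control probe sets it was -0.02.

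The 20S and 26S proteasome degrades ubiquitin-tagged protein. Of its 30 measured subunits 29 had a lower mean on day 14 and 15 were lower at an unadjusted p (50%, background 3.56%). The median of -0.22 was -0.14 after quantile normalization and turned to 0.07 after scaling to GAPDH. Psmd8, of the regulatory cap, had 4441 to 7308 in SCI8d and 3182 to 5346 in SCI14d (log2 fold change -0.51), Psmb5, a catalytic subunit, was lower by -0.31, Psmb4 by -0.29 and Psmd11 by -0.44. Against controls the median of the subunits was 0.93 on day 3, 0.22 on day 8 and 0.05 on day 14, values that share the controls. In trained rats the day 14 against day 8 median was -0.03. For Psmb5 the trained value was 0.09 and the difference of both courses -0.40 (unadjusted p = 0.00511, adjusted p = 0.908 in limma). Of 22 ubiquitin ligases and FoxO genes of atrophy, 15 had a higher mean, as had 59.5% of all genes, and the median was 0.17. At an unadjusted p, 1 was higher (4.55%, background 5.99%) and 2 were lower (9.09%, background 3.56%). The lower ones were Trim54, given above, and Stub1, a ligase that works with chaperones (-0.23). Trim63, or MuRF1, had medians of 5838 in SCI8d and 7435 in SCI14d (0.19, adjusted p = 0.797), and Fbxo32, or atrogin-1, of 309 and 458 (0.39, adjusted p = 0.786). Nedd4, a ligase induced by unloading, was the higher one (0.33).

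Genes of the membrane skeleton and of calcium release were lower in part. Cav3, the caveolin of muscle, had 5660 to 7753 in SCI8d and 2140 to 5573 in SCI14d, and Cacng1, a subunit of the calcium channel of the T-tubule, 14813 to 18580 and 5449 to 14326. Neither overlapped between days, with log2 fold changes of -0.54 and -0.53 (exact permutation p = 0.00216 each). Camk2a, a calcium-dependent kinase, was lower by -0.97 and Flnc, a filamin of the Z-disc, by -0.74. The medians of the calcium list (-0.19) and of the costamere list (-0.17) turned to 0.10 and 0.12 after scaling to GAPDH, and that of the costamere list was -0.36 without SCI8d replicate 1. At an unadjusted p, 6 of 26 (23.1%) and 3 of 21 (14.3%) were lower, against 3.56% of all genes.

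Lower means were most frequent among the brightest probe sets and did not follow brightness below them. Among the brightest 5% of probe sets, 72.4% had a lower mean on day 14 and the median log2 fold change was -0.13, while the share was 46.4% in the class next below it, 38.8% in the next one and 45.1% in the dimmest 40%. In the trained groups the brightest 5% were lower in 53.4%. At an unadjusted p under 0.05, 21.5% of the brightest 5% were lower in untrained rats. In the class next below it 5.18% were, in the next one 2.17% and in the dimmest 40% 2.2%. The background of 3.56% given beside the lists is that of all genes, and it is not matched for brightness. The 99th percentile of signal was 18579 to 23274 in SCI8d and 15278 to 20573 in SCI14d, lowest in SCI14d replicate 4. After quantile normalization, which gives each array the same distribution, the medians of the heat shock, ribosomal, proteasome and slow-fiber lists were -0.24, -0.05, -0.14 and -0.11. For the skeletal muscle fiber markers, 11 of 12 lower with a median of -0.31, it was 0. The part of the signal distribution in these values was not tested.

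**Figure D4:**
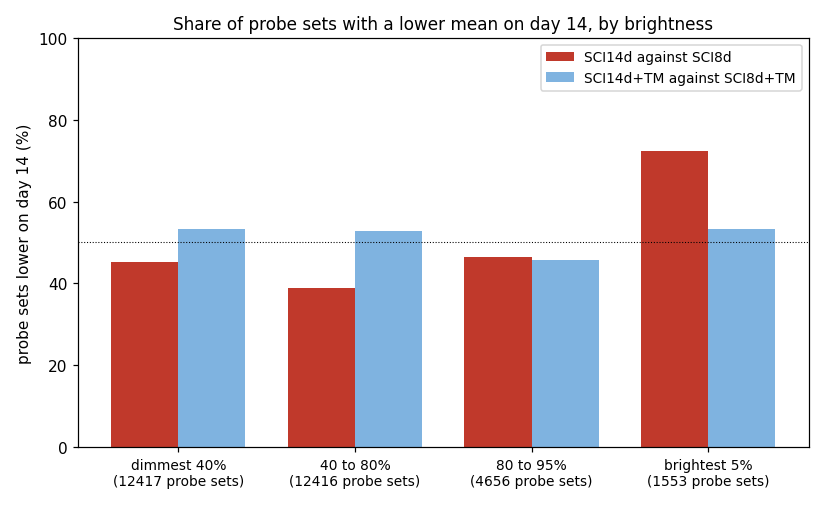
Percent of probe sets with a lower mean on day 14 than on day 8 (y axis), by class of mean log2 signal over all arrays (x axis), for untrained (red) and trained rats (light blue). The brightest 5% were lower in 72.4% of untrained and 53.4% of trained comparisons, where the dimmest 40% had 45.1% and 53.3% and the lowest untrained share was 38.8% in the 40 to 80% class.

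Genes of lipid use and of ketone and branched-chain amino acid use had higher means in most cases, where 59.5% of all genes had one. Of 19 genes of lipid uptake and storage 18 had a higher mean, 3 were at an unadjusted p (15.8%, background 5.99%) and the median was 0.58. In trained rats 17 had a higher mean and the median was 0.76. Angptl4, which inhibits lipoprotein lipase during fasting, had 70.0 to 742 in SCI8d and 161 to 3648 in SCI14d (log2 fold change 2.22). Ucp3, an uncoupling protein of muscle that follows fatty acid supply, had 426 to 6751 and 990 to 5835 (1.48), and Slc27a1, a fatty acid transporter, was higher by 0.72 with 5 of 6 SCI14d rats above and 1 below all SCI8d rats. SCI8d replicate 1 held the highest SCI8d value of Ucp3, and SCI14d replicate 2 the highest SCI14d value.

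Of 20 genes of mitochondrial fatty acid oxidation, 19 had a higher mean, with a median of 0.34. At an unadjusted p 1 was higher (5%, background 5.99%), Eci2 (0.45). The mean log2 signal of the list was 12.08 to 13.11 in SCI8d (median 12.25) and 12.08 to 13.60 in SCI14d (median 12.65). The extremes were SCI8d replicate 1 at 13.11 and SCI14d replicate 2 at 13.60, and the other rats of both days lay between 12.08 and 12.83. Without SCI14d replicate 2 the median was 0.15. Without SCI8d replicate 1 and SCI14d replicate 4, chosen after seeing the data, it was 0.57 with 15 genes at an unadjusted p. In that setting 3183 of 31042 probe sets were at an unadjusted p, 62% of them higher. These 2 rats were the highest SCI8d rat (13.11) and the lowest SCI14d rat (12.08) of this list. Leaving them out therefore raises the difference by itself. In trained rats all 20 were higher, 19 at an unadjusted p where all genes had 9.76%, 6 passed and the median was 0.78. Genes of ketone and branched-chain amino acid use had 19 of 21 higher, 2 at an unadjusted p (9.52%, background 5.99%) and a median of 0.21, which was 0.07 without SCI14d replicate 2, with Mmut, which feeds their carbon into the citrate cycle, at 0.68. Fabp3, the fatty acid carrier of muscle, had a median of 9035 in SCI8d and 16429 in SCI14d against 44424 in controls. Its log2 fold change was 0.44 without training (adjusted p = 0.77) and 1.75 with it (adjusted p = 0.0209), and the difference of -1.32 did not pass (unadjusted p = 0.0169, adjusted p = 0.918 in limma). The 44 subunits of the respiratory chain had a median of -0.02. For 15 citrate cycle genes it was 0.07, with 0 at an unadjusted p. For 21 glycolysis and glycogen genes it was -0.01, with 0 higher and 1 lower (4.76%, background 3.56%) at an unadjusted p.

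Against controls, the median log2 fold change of the fatty acid oxidation list was -1.09 on day 8 and -0.76 on day 14, and that of lipid uptake and storage was -1.01 and -0.31. The immediate early genes were at -0.64 and 0.35, and the neutrophil markers at -0.72 and 1.17. The cell cycle genes were at 1.03 and 1.23, and none of the 31 was at an unadjusted p between day 8 and day 14. These pairs share the control arrays and are given side by side without a test.

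**Figure D5:**
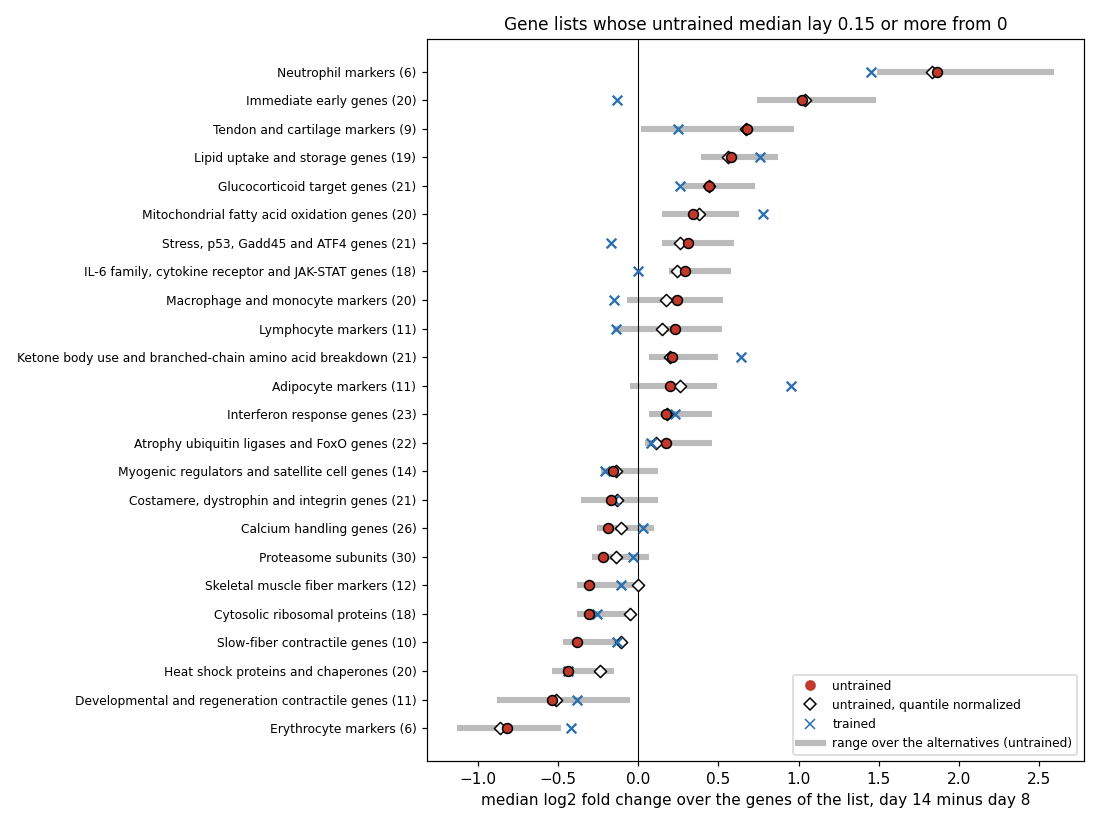
Median log2 fold change of day 14 minus day 8 (x axis) for the lists whose untrained median was at least 0.15 from 0, with the number of genes measured in brackets, for untrained rats (red), untrained rats after quantile normalization (diamonds) and trained rats (crosses). Gray bars span the alternatives and pass to the other side of 0 for the proteasome, calcium, costamere, myogenic, adipocyte, lymphocyte and macrophage lists and reach 0 for the skeletal muscle fiber markers, while those of the neutrophil markers (1.49 to 2.59) and the immediate early genes (0.74 to 1.48) stayed above it.

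Of 16 genes of the acetylcholine receptor and neuromuscular junction, 7 had a higher mean and 9 a lower one, with a median of -0.02. At an unadjusted p, 1 was higher (6.25%, background 5.99%) and 0 were lower. The receptor subunits Chrnd, Chrne and Chrng had log2 fold changes of -0.52, -0.55 and -0.03. The higher gene was Chrna1, another receptor subunit, which had 342 to 661 in SCI8d and 406 to 9179 in SCI14d. The highest value was that of SCI14d replicate 4 and the next one was 1347, with a log2 fold change of 1.23 (SE 0.46). Myog, the myogenic factor that drives this subunit, had medians of 6184 and 4451 (-0.37). Igfbp5, a binding protein of insulin-like growth factor, had 3963 to 23415 in SCI8d and 6871 to 20683 in SCI14d (0.95), and without its highest rat, replicate 1, no SCI8d rat was above 6909. Among markers of other tissue, 0 of 9 tendon genes (median 0.68, and 0.02 without SCI8d replicate 2) and 0 of 11 adipocyte genes (median 0.2) were at an unadjusted p in limma. All 11 endothelial markers had a higher mean and 2 were at an unadjusted p (18.2%, background 5.99%), among them Cldn5, a junction protein of vessels (0.98). The list median was 0.12, or -0.05 without SCI14d replicates 2 and 4. All 6 erythrocyte markers had a lower mean with a median of -0.82, 3 of them at an unadjusted p (50%, background 3.56%). Hbb, a globin, had 39834 to 70317 in SCI8d and 29504 to 46714 in SCI14d (-0.37), and Slc4a1, the anion exchanger of red cells, was lower by -1.42. The part of blood in the muscles was not tested.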

How the data were processed

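RNA of 36 left soleus muscles was hybridized to Affymetrix Rat Genome 230 2.0 arrays, 1 rat per array. The deposited intensity values are linear MAS5 signals (the tool is named in the labels) that the authors scaled per array. The methods state that 31099 probe sets passed a filter of at least 4 present calls, and the deposited values hold 31099 probe sets. As the lowest signal was 0.0872, a tested probe set is not taken here to be a detected one. The trimmed mean was 800.27 to 800.37 on all arrays. Of 31099 probe sets, 57 controls were left out and 31042 tested. The platform annotation gave 1 symbol for 20826, several for 436 and none for 9780. The brightest probe set on average stood for each of 14217 genes.

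Log2 signals were fitted in limma 3.58.1 (R 4.3.3) with 1 mean per group over all 36 arrays, an intensity trend and Benjamini-Hochberg adjustment at 0.05, after the code was tested on simulated data. Adjusted p-values in the text are from limma, and exact permutation tests are two-sided over 6 against 6 rats. Figures were drawn in Python 3.11.15 with matplotlib 3.10.9. Named genes were the 10 of smallest p per direction, up to 4 per list by smallest p, defining list members and, where stated, genes chosen after their values were seen. The genes and lists were chosen with earlier results of these data known. Alternatives covered scaling, an offset of 32, filters, array weights, covariates, blocks, probe set choice, the methods' t-test and left-out arrays. The labels share replicate numbers between groups without saying that they pair rats. No per-sample column was left unmapped. The precision is limited by the number of arrays.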

Additional observations from a re-analysis of the deposited data

Results flagged for a closer look

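In 16 of 198 gene and group pairs, 1 rat lay apart from the other 5, with a gap to its neighbor past Dixon's critical share of the group's range in log2 signal. Chance gives about 10 at 1 in 20.

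SCI14d replicate 4 was the low one in 5 genes. Its Cacng1 signal was 5449 with the next rat at 12013 (gap 0.818 of the range), its Tnni1 21504 against 40668 (0.73), its Cav3 2140 against 4285 (0.725), its Myoz2 12344 against 35926 (0.717) and its Myl2 12637 against 33916 (0.666). This rat also had the highest GAPDH 3′ to 5′ ratio of its group, at 1.35, whose part in these values was not tested.

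SCI8d replicate 1 stood apart in 7 genes. It was lowest for Hspb2 at 4247 with the next rat at 7231 (0.735), for Slc29a2 at 705 against 1183 (0.64) and for Tpm3 at 13328 against 26138 (0.639). It was highest for Cldn5 at 1860 against 719 (0.743), for Mmut at 2727 against 1159 (0.701), for Igfbp5 at 23415 against 6909 (0.687) and for Ucp3 at 6751 against 1177 (0.632).

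The other 4 were spread over different rats. SCI14d replicate 1 was lowest for Myh4 at 68.0 against 1926 (0.692). SCI8d replicate 4 was highest for Ccl2 at 3247 against 1320 (0.683), SCI8d replicate 5 lowest for Cxcl2 at 4.42 against 27.1 (0.679) and SCI8d replicate 2 lowest for Spry4 at 167 against 267 (0.647).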

How the results depend on the processing

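The count of 0 probe sets passing was 1 without the intensity trend and 1 with array weights. It was 5 without both arrays of lowest correlation and 1 without SCI14d replicates 2 and 4, both chosen after seeing the data, and 0 to 9 when 1 rat was left out. At an unadjusted p there were 5819 probe sets after scaling to the GAPDH control probe sets, 1609 without SCI14d replicates 2 and 4 and, with fewer features tested, 1376 for 1 probe set per gene and 1272 for averaged probe sets. The share of higher ones was 48.4% after quantile normalization, 37% after median centring and 97.5% after GAPDH scaling. The untrained minus trained difference passed for 2 with array weights, 2 without both lowest arrays and 0 to 1 with 1 rat left out.

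The log2 fold change turned in 9 of 2813 values over 99 genes, dim probe sets left out. Psmb4 was 0.00 after GAPDH scaling, Mybph 0.14 without SCI14d replicates 2 and 4, and Pdgfrb 0.00 for the mean of its probe sets and -0.60 on another probe set. Other probe sets gave -0.07 for Phf14, 0.36 for Ssu72, 0.18 for Rpl7, and 0.31 and 0.10 for Tpm3. Counting dim ones, 62 other probe sets of 33 of these genes held 14 of opposite sign, 8 of them dim (Kars1, Selp, Phf14, Igfbp5, Il1r1, Cebpd, Eef2 and Tpm3). The causes were not tested.

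With the replicate number as a block 0 probe sets passed and 2796 were at an unadjusted p. Rats of the same number correlated from -0.34 to 0.27 in their deviations, so the numbers were not taken to pair rats.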
